A study of Mus musculus with 12 samples.

Results

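The genes described here are 10 genes of Janus kinase and STAT signaling: the transcription factors *Stat3*, *Stat5a*, *Stat5b* and *Stat6*, the cytokine receptor subunits *Il6st*, *Il6ra*, *Osmr* and *Il4ra*, and the inhibitors *Socs2* and *Socs3*. They were chosen by gene name from a count table of 54532 genes, and each name was found once. These genes, and the pathway and marker lists below, were chosen with earlier results of these data known. Counts of them set beside the share of all genes therefore describe these data and are no independent test. All 10 passed the filter on low counts, which kept 24642 genes.

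The counts come from RNA-seq of whole kidneys of 12 C57BL/6 mice in 4 groups of 3, each 18 days old. The comparisons ask how cystic and noncystic kidneys differ, and what loss of the miR-17 motif in the *Pkd2* 3′-UTR changes in either. All 12 mice carried the *Pkd1* RC missense allele opposite a floxed *Pkd1* allele. Noncystic mice had no Cre and are written *Pkd1* RC/+. Cystic mice carried Ksp-Cre, which deletes the floxed allele in tubule epithelium and not in the other cells of the kidney, and are written *Pkd1* RC/-. Within each state, 3 mice had unedited *Pkd2* (*Pkd2* +/+) and 3 were homozygous for the Δ17 allele (*Pkd2* Δ17/Δ17), a CRISPR/Cas9 deletion of the miR-17 motif. Noncystic *Pkd2* +/+ mice are numbered 19 to 21, noncystic *Pkd2* Δ17/Δ17 mice 22 to 24, cystic *Pkd2* +/+ mice 25 to 27 and cystic *Pkd2* Δ17/Δ17 mice 28 to 30.

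STAT proteins wait in the cytoplasm until a cytokine activates the Janus kinases bound to its receptor. The STATs are then recruited to the receptor and phosphorylated. They then pair, enter the nucleus and bind DNA. Cytokines of the interleukin-6 family signal through gp130, the product of *Il6st*, and mainly activate STAT3. Interleukin-4 and interleukin-13 signal through the product of *Il4ra* and activate STAT6, and growth hormone and prolactin act mainly through STAT5. SOCS proteins are induced by STATs and switch the receptors off, so their mRNA is often read as a trace of recent signaling. Activity itself depends on phosphorylation, which mRNA counts do not measure.

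Total counts ran from 18800307 to 24453033 per mouse. *Pkd2* itself, whose sequence was edited, stood at 213 to 233 CPM (counts scaled to library size) in cystic *Pkd2* +/+ kidneys and at 307 to 337 CPM in cystic *Pkd2* Δ17/Δ17 kidneys, a log2 fold change of 0.53 (SE 0.08, adjusted p = 0.00249). In noncystic kidneys *Pkd2* ran from 194 to 219 CPM with *Pkd2* +/+ and from 270.5 to 286 CPM with *Pkd2* Δ17/Δ17 (log2 fold change 0.40, SE 0.08), without overlap, but with an adjusted p of 0.771. Unless another tool is named, an adjusted p is from edgeR's quasi-likelihood test, adjusted by Benjamini-Hochberg over all genes tested. Kidney markers were present in every mouse, with summed proximal tubule markers between 2528 and 8508 CPM. *Xist* was high in mice 19, 22, 23, 25, 26 and 28, which are 1 or 2 mice of each group, and the labels give no sex. Nothing in these files marks a batch.

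*Stat5b*, *Stat5a* and *Stat3* lie next to each other within 158810 bases of chromosome 11. In the mouse genome build GRCm38, *Stat5b* runs from 100780731 to 100850724 on the reverse strand, *Stat5a* from 100859351 to 100885169 on the forward strand and *Stat3* from 100885098 to 100939540 on the reverse strand. *Stat5a* and *Stat3* overlap tail to tail by 72 exon bases, which are 0.756% of the exon bases of *Stat3* and 1.01% of those of *Stat5a*. The strand setting of the counting is not given in the sources used here, so reads from those bases cannot be assigned with certainty. *Stat6* lies on chromosome 10 (127642986 to 127660957, forward strand) and shares 40 exon bases with *Nab2* on the other strand. *Il4ra* shares 571 exon bases with *Gm44876*, which had at most 1 read in any mouse, and *Il6ra* shares 242 with *Gm42809*, which had at most 3.

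Per kilobase of annotated exons, *Stat6* was the most abundant of the 10 mRNAs in noncystic *Pkd2* +/+ kidneys, at 21.5 ± 1.23 CPM per kilobase (SD, n = 3). *Il6st* followed at 14.8 ± 1.24, *Stat3* at 10 ± 0.669 and *Stat5b* at 8.41 ± 0.410, and *Il6ra* was lowest at 0.981 ± 0.133 CPM per kilobase. In cystic *Pkd2* +/+ kidneys *Il6st* (27.9 ± 3.18), *Socs3* (26.1 ± 3.38), *Stat3* (23.96 ± 2.16) and *Stat6* (23.7 ± 1.12 CPM per kilobase) led. Neighbours in this order lay within 1 SD of each other, while *Il6st* stood above *Stat3* and *Stat6* by more than its SD. With the length of the longest transcript in place of all exons, *Stat6* still led in noncystic *Pkd2* +/+ kidneys (25.1 CPM per kilobase), while in cystic *Pkd2* +/+ kidneys *Stat3* (37.8) and *Il6st* (35.7) stood above *Socs3* (29.5) and *Stat6* (27.6). The order of these 4 mRNAs in cystic kidneys therefore depends on the length used.

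Some of these genes carry short sequences that bear on the study's regulator or on the pathway. miR-17 is shown because its motif was the one deleted from *Pkd2*, and sites of *Stat3*, *Il6st* and *Osmr* are shown because these mRNAs were higher in cystic kidneys. In the lines that follow, capitals mark the seed (bases 2 to 8) of the miRNA or the 7 bases GCACTTT that pair with it. The miRNA is from RefSeq (GRCm38.p6, chr14:115043684-115043706), and the sites are from the last exons of the transcripts with the longest annotated 3′-UTR (GRCm38, strand of the gene).
miR-17-5p: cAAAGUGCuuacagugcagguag
*Stat3* site at chr11:100888542-100888548 (reverse strand, exon 24 of 24, nucleotide 251 after the stop codon): ggcaatctggGCACTTTttaaaataga
*Stat3* site at chr11:100888295-100888301 (reverse strand, exon 24 of 24, nucleotide 498): tcctggctctGCACTTTcaaccttgct
*Il6st* site at chr13:112505291-112505297 (forward strand, exon 17 of 17, nucleotide 846): ggttgaggaaGCACTTTatccagaatg
*Osmr* site at chr15:6815324-6815330 (reverse strand, exon 18 of 18, nucleotide 41): cacactatagGCACTTTgggagatgta

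Of the 10 genes, 4 held at least 1 such match: *Il6ra* 3, *Stat3* and *Il6st* 2 each, and *Osmr* 1. The *Il6st* site shown is the only one of these 8 matches that is followed by an A, the longer form of a seed match. Among all 21099 protein-coding genes of the table with an annotated 3′-UTR, 12.2% held a match. Among the 11090 whose 3′-UTR is at least 1000 bases long, as it is in 9 of the 10, the share was 20.2%. *Stat6*, *Stat5a*, *Stat5b*, *Socs2*, *Socs3* and *Il4ra* held none in this window. A match is a run of letters and does not show that the miRNA binds there.

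The promoters were searched for TTCNNNGAA, the spaced palindrome that most STATs bind, and for TTCNNNNGAA, the wider form that STAT6 prefers. Both read the same on either strand, and each window reached from 250 bases before to 50 after a RefSeq start. The 9 genes that matched the RefSeq table had 11 such windows. TTCNNNGAA was found in 1 of them, that of *Socs3*, at position -154 from the start (GRCm38.p6, chr11:117969512-117969520, reverse strand), against 8.30% of all 32851 promoters. It is shown here because *Socs3* gave the largest change of the 10 genes, with the motif in capitals.
*Socs3* promoter: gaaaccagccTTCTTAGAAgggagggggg
TTCNNNNGAA was found in 0 of the 11 windows, against 6.95% of all promoters.

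**Figure D1:**
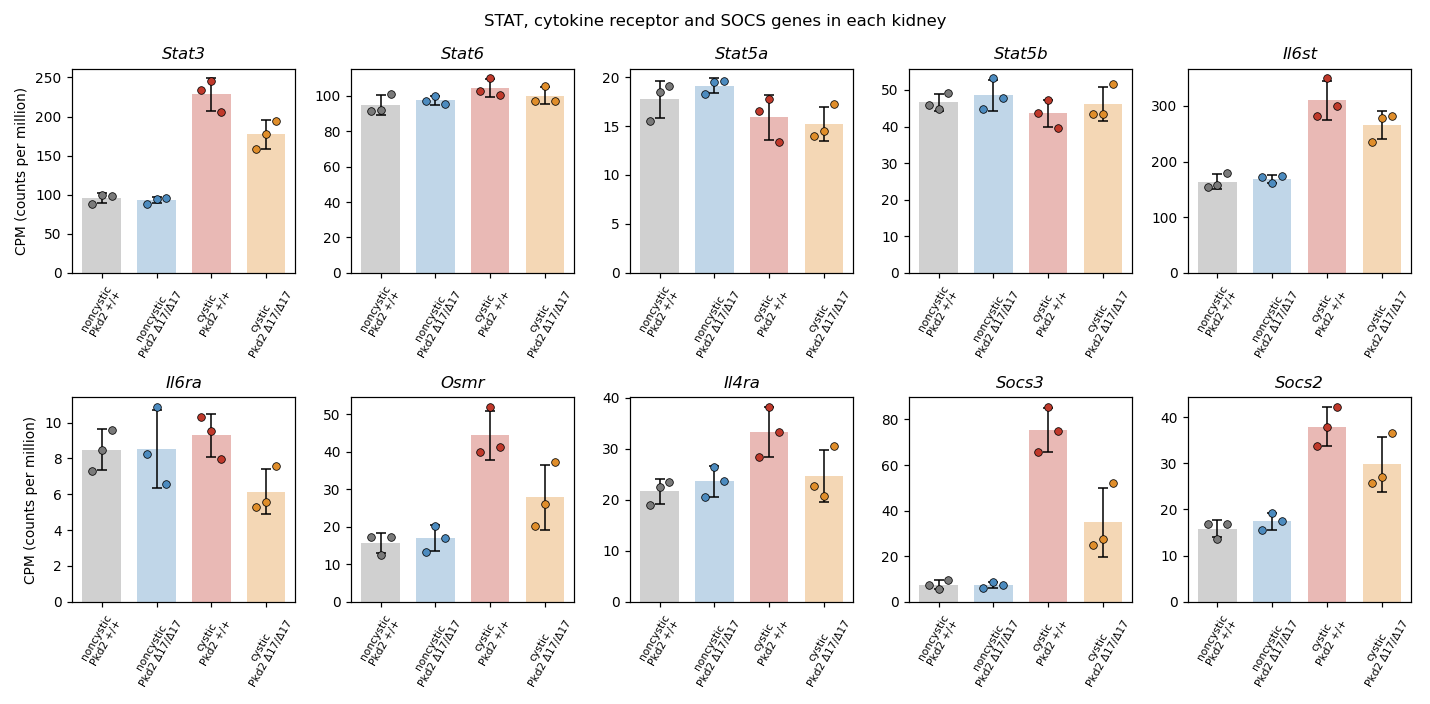
CPM of each of the 10 genes (vertical axis, linear, from 0) in each of the 12 kidneys; points are mice, bars are group means and whiskers are SD (n = 3 mice a group). *Stat3*, *Il6st*, *Osmr*, *Socs2* and *Socs3* stand higher in both cystic groups than in either noncystic group on average, *Stat6* stays between 91.4 and 110 CPM in all 12 mice, and mouse 30 is the highest cystic *Pkd2* Δ17/Δ17 kidney for *Stat3*, *Socs2*, *Socs3*, *Il6st*, *Il6ra*, *Osmr* and *Il4ra*.

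Between cystic and noncystic *Pkd2* +/+ kidneys, 6 of the 10 genes rose and 0 fell. Of all 24642 genes tested, 31.1% changed, 16.9% upward and 14.2% downward, and with library totals in place of TMM factors 25.4% rose and 10% fell. These shares include many genes with few reads, while the 10 genes lay between the 54.8th (*Il6ra*) and 97th (*Il6st*) percentile of mean log2CPM. With filterByExpr, a stricter filter on low counts, 45.1% of 17425 genes changed, 23.8% upward and 21.3% downward. *Socs3* rose 9.91-fold, *Osmr* 2.83-fold, *Stat3* and *Socs2* 2.39-fold each, *Il6st* 1.89-fold and *Il4ra* 1.54-fold. The median log2 fold change was 0.77 over the 10 genes and 0.02 over all genes tested. In whole kidneys, fewer cells of a type and less RNA per cell cannot be told apart.

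*Stat3*, the STAT of the interleukin-6 family, stood at 88.0, 99.9 and 98.0 CPM in the noncystic *Pkd2* +/+ kidneys and at 234, 245 and 205 CPM in the cystic *Pkd2* +/+ kidneys. Every cystic kidney was more than 100 CPM above every noncystic one. The log2 fold change was 1.26 (SE 0.09, adjusted p = 6.18e-08).

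*Stat6*, the STAT of interleukin-4 and interleukin-13, stood at 91.4, 91.8 and 101 CPM in noncystic and at 102, 110 and 100.3 CPM in cystic *Pkd2* +/+ kidneys. The groups overlapped, and the log2 fold change was 0.14 (95% interval -0.01 to 0.29, adjusted p = 0.162). *Stat6* was called higher, at the same threshold, with limma-trend and with library totals in edgeR, a scaling that moves the median of all genes up by 0.158 in this comparison. *Stat5a* (log2 fold change -0.16, 95% interval -0.43 to 0.12) and *Stat5b* (-0.10, -0.30 to 0.11), the STATs of growth hormone and prolactin, did not pass either. The intervals of the 6 genes that rose began at 0.304, that of *Il4ra*, or higher, above the upper bounds of *Stat6*, *Stat5a* and *Stat5b*. That does not hold for *Il6ra*, which did not pass either and whose interval reached 0.547.

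Among the receptors, *Il6st*, the signal-transducing subunit gp130 shared by the interleukin-6 family, stood at 154, 158 and 179.5 CPM in noncystic and at 281, 350 and 299 CPM in cystic *Pkd2* +/+ kidneys. The lowest cystic kidney was above the highest noncystic one (log2 fold change 0.92, SE 0.10, adjusted p = 2.11e-06). *Osmr*, which pairs with gp130 to bind oncostatin M, stood at 17.2, 12.6 and 17.3 CPM in noncystic and at 40.0, 51.9 and 41.3 CPM in cystic kidneys, again without overlap (1.5, SE 0.20, adjusted p = 2.00e-05).

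*Il4ra*, the subunit that binds interleukin-4, stood at 18.9, 22.6 and 23.5 CPM in noncystic and at 28.4, 38.2 and 33.3 CPM in cystic *Pkd2* +/+ kidneys. It was the smallest of the 6 rises (log2 fold change 0.62, SE 0.15, adjusted p = 0.00392), and its groups did not overlap. *Il6ra*, which binds interleukin-6 itself, stood at 7.32 to 9.61 CPM in noncystic and at 7.96 to 10.3 CPM in cystic kidneys. Its groups overlapped and the log2 fold change was 0.13 (95% interval -0.28 to 0.55, adjusted p = 0.674).

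*Socs3*, the inhibitor that binds gp130, had the largest difference. It stood at 7.53, 5.47 and 9.72 CPM in noncystic and at 65.9, 85.4 and 75.0 CPM in cystic *Pkd2* +/+ kidneys, from 96 to 191 reads against 1592 to 1744 reads per mouse. The lowest cystic kidney was over 50 CPM above the highest noncystic one (log2 fold change 3.31, SE 0.26, adjusted p = 1.02e-07). *Socs2*, the inhibitor of growth hormone signaling, stood at 16.8, 13.7 and 16.9 CPM against 33.7, 37.8 and 42.1 CPM, also without overlap (1.26, SE 0.14, adjusted p = 3.41e-06).

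Of all genes tested, 22% had every cystic *Pkd2* +/+ kidney above every noncystic one, and 6 of the 10 genes did. The 6 rises were called under each of the 14 alternatives of this comparison. Their adjusted p reached 0.0264 for *Il4ra*, in a fit without one mouse, and stayed at or below 0.000248 for the other 5. Under these alternatives between 12.8% (no cutoff on low counts) and 25.6% (limma-trend) of all genes rose.

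**Figure D2:**
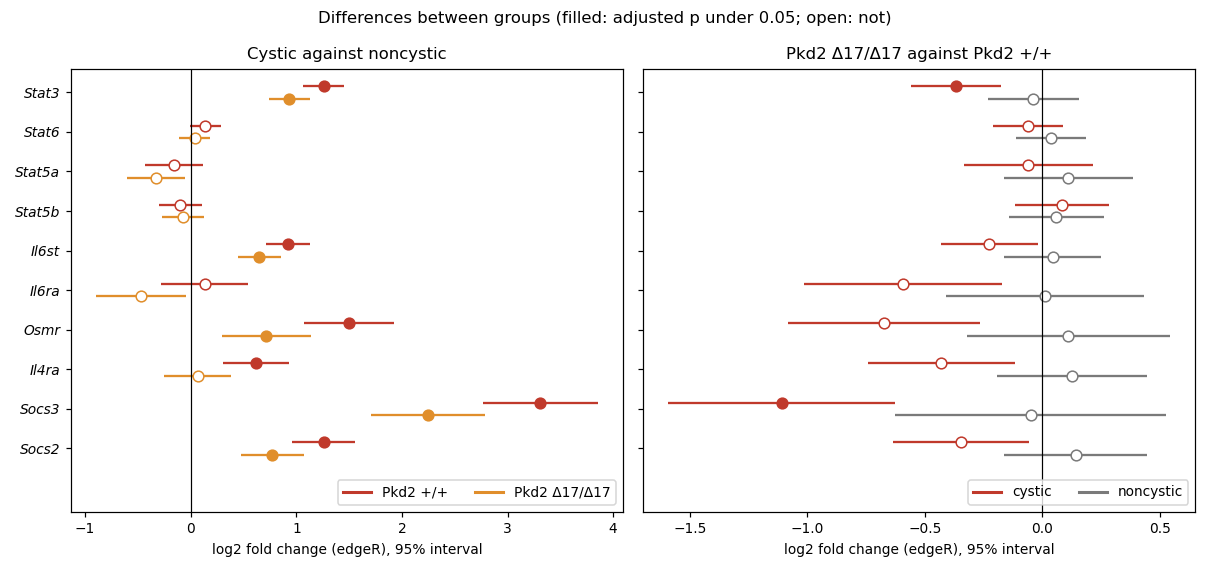
log2 fold change (horizontal axis) of each gene with its 95% interval from edgeR, for cystic against noncystic kidneys on the left (red, *Pkd2* +/+; orange, *Pkd2* Δ17/Δ17) and for *Pkd2* Δ17/Δ17 against *Pkd2* +/+ on the right (red, cystic; gray, noncystic). Filled points have an adjusted p under 0.05: 6 and 5 genes on the left, *Stat3* and *Socs3* in cystic kidneys on the right and 0 in noncystic kidneys.

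Between the cystic groups, *Stat3* and *Socs3* were lower in *Pkd2* Δ17/Δ17 than in *Pkd2* +/+ kidneys, and these were 2 of the 10 genes. Of all genes tested 2.23% changed and 1.04% fell. *Socs3* was 2.16-fold lower and *Stat3* 1.29-fold lower. Of the other 8 genes, 7 had a negative log2 fold change, from -0.67 for *Osmr* to -0.06 for *Stat5a* and *Stat6*, and *Stat5b* stood at 0.08, but none of these passed the threshold. The median over the 10 genes was -0.36 and that over all genes tested was 0.001.

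*Stat3* stood at 158, 178 and 195 CPM in the cystic *Pkd2* Δ17/Δ17 kidneys, against the 205 to 245 CPM of the cystic *Pkd2* +/+ kidneys. The groups did not overlap, with 195 CPM in mouse 30 just under 205 CPM in mouse 27. The log2 fold change was -0.37 (SE 0.09, 95% interval -0.56 to -0.18, adjusted p = 0.0426). This adjusted p lies near the threshold of 0.05, and the call was not stable when a mouse was left out. It was lost without mouse 25 (adjusted p = 0.0712), 26 (0.136), 27 (0.0552), 28 (0.229) or 29 (0.144). It held without mouse 30 (0.0211). In these fits the log2 fold change ran from -0.44 to -0.29. Of all genes tested, 2.23% were called in the main fit, and 0.527% without mouse 27, 0.515% without 28 and 0.479% without 29. The share was 3.46% without mouse 25, 1.62% without 26 and 3.09% without 30.

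*Socs3* stood at 25.1, 27.3 and 52.3 CPM in the cystic *Pkd2* Δ17/Δ17 kidneys, against 65.9 to 85.4 CPM. Mouse 30, with 52.3 CPM, lay nearer to the *Pkd2* +/+ kidneys than the other two did. The log2 fold change was -1.11 (SE 0.23, 95% interval -1.59 to -0.63, adjusted p = 0.0190). The call was lost without mouse 26 (0.0506), 27 (0.0719), 28 (0.117) or 29 (0.111), and held without mouse 25 (0.00846) or 30 (7.56e-04).

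In a fit on the compared cystic groups alone, where 0.683% of all genes tested changed, neither *Stat3* (adjusted p = 0.131) nor *Socs3* (0.0625) passed. Their log2 fold changes kept their sign under all 14 alternatives, from -0.44 to -0.29 for *Stat3* and from -1.52 to -0.92 for *Socs3*.

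*Osmr* stood at 20.1, 26.2 and 37.2 CPM in cystic *Pkd2* Δ17/Δ17 kidneys, under the 40.0 to 51.9 CPM of the cystic *Pkd2* +/+ kidneys. Its groups did not overlap, yet the log2 fold change of -0.67 (SE 0.19) had an adjusted p of 0.0877. *Il6ra* stood at 5.29, 5.57 and 7.60 CPM against 7.96 to 10.3 CPM, also without overlap (-0.59, SE 0.20, adjusted p = 0.1501). Of the 14 alternatives, *Osmr* passed in 3, 1 of them with a mouse left out, and *Il6ra* in 1. Of all genes tested, 10.2% had every cystic *Pkd2* Δ17/Δ17 kidney under every cystic *Pkd2* +/+ kidney, and *Stat3*, *Socs3*, *Osmr* and *Il6ra* were 4 of the 10.

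*Il4ra* stood at 22.8, 20.7 and 30.6 CPM (log2 fold change -0.43, SE 0.15, adjusted p = 0.162), *Socs2* at 25.8, 26.95 and 36.7 CPM (-0.35, SE 0.14, adjusted p = 0.238) and *Il6st* at 236, 278 and 282 CPM (-0.23, SE 0.10, adjusted p = 0.290). In all 3 the highest cystic *Pkd2* Δ17/Δ17 kidney, mouse 30, reached into the cystic *Pkd2* +/+ range. Without mouse 30, *Osmr* (adjusted p = 0.0117), *Il4ra* (0.0319) and *Socs2* (0.0421) passed as well, and 5 of the 10 genes were lower. In that fit 3.09% of all genes tested changed and 1.46% fell. Mouse 30 was the highest of its group for each of these genes, so leaving it out lowers their group means by construction.

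*Stat6* stood at 97.1, 106 and 97.2 CPM in cystic *Pkd2* Δ17/Δ17 kidneys, inside the 100.3 to 110 CPM of the cystic *Pkd2* +/+ kidneys for 1 mouse and just under it for 2. Its log2 fold change was -0.06 (95% interval -0.21 to 0.09, adjusted p = 0.773). *Stat5a* (-0.06, -0.34 to 0.21) and *Stat5b* (0.08, -0.12 to 0.29) gave intervals around 0.

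**Figure D3:**
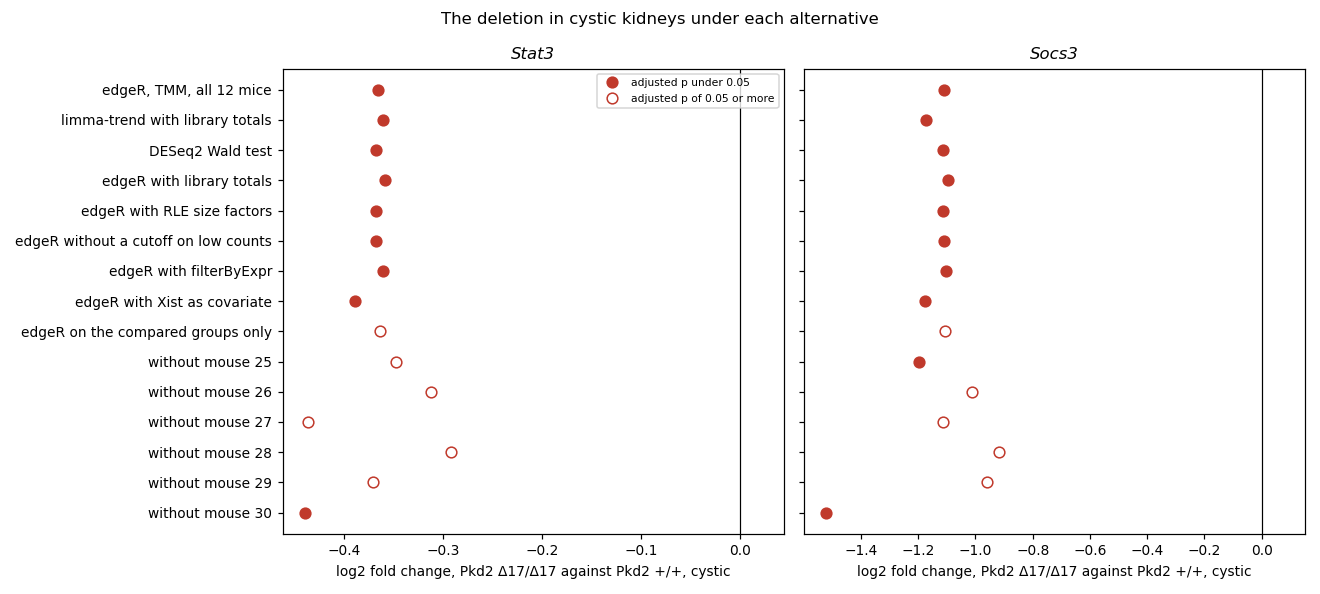
log2 fold change (horizontal axis) of *Stat3* and *Socs3* for *Pkd2* Δ17/Δ17 against *Pkd2* +/+ in cystic kidneys, as reported (top row) and under each of 14 alternatives (other rows); filled points have an adjusted p under 0.05. All points lie left of 0, and *Stat3* is filled in 8 and *Socs3* in 9 of the 14 alternatives.

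In noncystic kidneys the motif deletion changed 0 of the 10 genes. Of all genes tested 0.00406% changed, and at an unadjusted p under 0.05 the counts were 0 of the 10 genes and 6.31% of all. limma-trend and DESeq2 also called 0 of the 10. The log2 fold changes ran from -0.05 for *Socs3* (95% interval -0.63 to 0.53) to 0.14 for *Socs2* (-0.16 to 0.45). *Stat3* stood at 88.2, 94.7 and 95.6 CPM in noncystic *Pkd2* Δ17/Δ17 kidneys, inside the range of the noncystic *Pkd2* +/+ kidneys, and its interval ran from -0.23 to 0.16. *Socs3* stood at 5.94, 8.89 and 7.21 CPM, also inside that range. The interval of *Socs3* is wide enough to hold a fall of 0.63 or a rise of 0.53 in log2 units.

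Between cystic and noncystic *Pkd2* Δ17/Δ17 kidneys, 5 of the 10 genes rose: *Socs3* (log2 fold change 2.25), *Stat3* (0.93), *Socs2* (0.77), *Osmr* (0.72) and *Il6st* (0.65). Of all genes tested, 23% changed, 12.8% upward and 10.2% downward, and with library totals 21.6% rose and 6.72% fell. *Osmr* was the weakest of these (adjusted p = 0.0148). Its groups overlapped, since mouse 28 at 20.1 CPM lay below mouse 23 at 20.4 CPM, and its call was lost without mouse 22 (adjusted p = 0.0828) or 30 (0.113). *Il4ra* stood at 20.7 to 30.6 CPM in cystic and at 20.6 to 26.5 CPM in noncystic *Pkd2* Δ17/Δ17 kidneys, a log2 fold change of 0.06 (95% interval -0.25 to 0.38, adjusted p = 0.820). *Stat6* had a log2 fold change of 0.04 (adjusted p = 0.767) and was called higher with library totals only, in edgeR (0.19, adjusted p = 0.0481) and in limma-trend (0.19, 0.0492), a scaling that moves the median of all genes up by 0.151 here. *Stat5a* lay lower in every cystic *Pkd2* Δ17/Δ17 kidney, at 13.9 to 17.2 against 18.3 to 19.6 CPM, with an adjusted p of 0.0833. It passed with DESeq2 (0.0408) and without mouse 30 (0.04997), and *Il6ra* (-0.47, 95% interval -0.90 to -0.05, adjusted p = 0.108) passed without mouse 24 (0.0433) or 30 (0.0456).

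Whether cystic disease and the motif deletion interact was tested as the difference between these changes. The interaction passed in 0 of the 10 genes and in 0.0122% of all genes tested, and limma-trend and DESeq2 also called 0 of the 10. At an unadjusted p under 0.05 there were 6 of the 10, against 8.33% of all: *Socs3* (log2 value -1.06, SE 0.36), *Osmr* (-0.78), *Il6ra* (-0.60), *Il4ra* (-0.56), *Socs2* (-0.49) and *Stat3* (-0.33, SE 0.13). After adjustment over all genes the smallest of these p-values was 0.405, for *Socs3*. So the lower *Stat3* and *Socs3* of cystic *Pkd2* Δ17/Δ17 kidneys are not shown to differ from the effect of the deletion in noncystic kidneys.

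The other genes of these pathways were taken as 6 lists, to be read against the 16.9% of all genes tested that rose and the 14.2% that fell in cystic *Pkd2* +/+ kidneys. With the motif deletion in cystic kidneys, 1.19% of all genes tested were higher and 1.04% lower. In the IL-6 family, 5 of 14 ligands and receptors rose in cystic *Pkd2* +/+ kidneys and 2 fell (median log2 fold change 0.78), and 2 of 14 is close to the 14.2% of all genes that fell. *Lif*, the ligand leukemia inhibitory factor, went from 0.712 to 1.31 CPM in noncystic to 13.3 to 14.9 CPM in cystic kidneys (log2 fold change 3.67, SE 0.35, adjusted p = 7.67e-07). *Clcf1*, another ligand of the family, rose by a log2 fold change of 0.996 (SE 0.17), and it shares 311 exon bases with *AC109138.7* on the same strand. The specific receptors of 2 ligands fell: *Lifr*, which binds LIF, from 78.0 to 90.6 CPM down to 45.9 to 50.5 CPM (-0.77, SE 0.08), and *Il11ra1*, which binds interleukin-11, by the same log2 value (-0.77, SE 0.07). *Il6* itself had at most 17 reads in any mouse. The motif deletion in cystic kidneys changed 0 of the 14 with edgeR's test, against 2 at an unadjusted p under 0.05, 1 with DESeq2 and 0 with limma-trend. Of all genes, 7.05% changed with DESeq2 and 2.29% with limma-trend. *Lif* stood at 5.77 to 17.9 CPM in cystic *Pkd2* Δ17/Δ17 kidneys, a range that takes in that of the cystic *Pkd2* +/+ kidneys.

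Of the 9 genes of the interleukin-4 and interleukin-13 list, *Il13* and *Il13ra2* fell under the filter, with at most 3 and 4 reads in a mouse. Of the 7 tested, 2 rose in cystic *Pkd2* +/+ kidneys and 0 fell, against 16.9% and 14.2% of all genes, and with 7 genes such a count says little about the list. *Il13ra1*, which pairs with the product of *Il4ra*, rose from 40.2 to 44.6 CPM up to 77.2 to 97.8 CPM (log2 fold change 1.03, SE 0.10, adjusted p = 5.15e-07), and *Crlf2*, a subunit of the receptor for thymic stromal lymphopoietin, rose by 0.67 (SE 0.12). With the motif deleted in cystic kidneys, *Il13ra1* (61.0 to 74.8 CPM, log2 fold change -0.37, SE 0.09, adjusted p = 0.0481) and *Il33*, an alarm cytokine of type 2 immunity (6.11 to 7.12 against 11.5 to 14.2 CPM, -0.93, SE 0.23, adjusted p = 0.0495), were lower. They are 2 of the 7 tested, against 1.04% of all genes that were lower. Both adjusted p-values lie next to the threshold, and this count of 2 went to 0 without any one of mice 26 to 29, in limma-trend, in edgeR with library totals and with *Xist* as covariate. Of all genes, 0.604% were lower without mouse 26, 0.243% without 27, 0.178% without 28 and 0.174% without 29. The share was 0.958% in limma-trend and in edgeR with library totals, and 1.12% with *Xist* as covariate.

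Among 21 Janus kinases, other STATs and inhibitors, 9 rose in cystic *Pkd2* +/+ kidneys and 1 fell, against 16.9% and 14.2% of all genes, with small changes (median log2 fold change 0.28). *Jak3* rose from 27.8 to 30.01 CPM up to 45.4 to 49.6 CPM (0.74, SE 0.10, adjusted p = 2.18e-05), and it shares 404 exon bases with *Insl3* on the same strand. *Cish*, a SOCS family inhibitor, rose by 0.77 (SE 0.14), and *Socs5* fell by 0.39 (SE 0.10). In cystic kidneys with the deletion, *Jak3* was lower (32.6 to 36.4 CPM, -0.50, SE 0.10, adjusted p = 0.0163) and *Socs5* higher (0.45, SE 0.10, adjusted p = 0.0233). They are 1 lower and 1 higher gene of the 21, against 1.04% and 1.19% of all genes. These 2 calls were lost without mouse 27, 28 or 29, when 0 genes of the list were called. Of all genes, 0.527% were called without mouse 27, 0.515% without 28 and 0.479% without 29, against 2.23% in the main fit. The 9 rises of the list became 5 without mouse 20 (when 13.5% of all genes rose) or 26 (14.9%). They became 12 in limma-trend (25.6%) and 13 in edgeR with library totals (25.4%). In these last 2 settings 0 genes of the list fell, against 10.2% and 10% of all genes.

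Of 20 genes known to respond to STAT3, 14 rose in cystic *Pkd2* +/+ kidneys and 0 fell (median log2 fold change 1.18), against 16.9% of all genes that rose. *Lcn2*, the tubule injury marker lipocalin-2, rose from 11.6 to 17.2 CPM up to 183 to 286 CPM (4.06, SE 0.32, adjusted p = 1.08e-07), and *Bcl3*, a cofactor of NF-κB, rose by 2.26 (SE 0.21). *Pim1*, *Cebpb* and *Cebpd*, which are also known to respond to STAT3, had log2 fold changes of 0.02, -0.15 and 0.12 and did not pass. With the motif deleted in cystic kidneys, 3 of the 20 were lower, against 1.04% of all genes, and the median was -0.50. *Hp*, the acute phase protein haptoglobin, stood at 31.0 to 102 CPM in cystic *Pkd2* +/+ and at 3.47 to 24.3 CPM in cystic *Pkd2* Δ17/Δ17 kidneys (-2.60, SE 0.52, adjusted p = 0.0173). *Serpina3n*, another acute phase gene, was lower by a log2 fold change of -1.78 (SE 0.37, adjusted p = 0.0201). *Lcn2* was lower by -1.09 (SE 0.27), with an adjusted p of 0.0481 next to the threshold. This count of 3 moved with the mice and the settings: it was 0 without mouse 28 or 29 and on the compared groups only, 1 without mouse 27, 5 without mouse 25 or with DESeq2, 9 without mouse 30 and 11 without a cutoff on low counts. Of all genes, 0.178% were lower without mouse 28, 0.174% without 29, 0.278% on the compared groups only and 0.243% without 27. The share was 1.58% without mouse 25, 3.52% with DESeq2, 1.46% without mouse 30 and 2.48% without a cutoff.

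Of 13 genes known to respond to STAT6 in macrophages and other cells, 6 rose in cystic *Pkd2* +/+ kidneys and 0 fell (median log2 fold change 0.99), against 16.9% of all genes that rose. The count was 4 without mouse 21, when 14.3% of all genes rose. *Mrc1*, the mannose receptor of macrophages, rose from 10.2 to 12.1 CPM up to 36.9 to 47.7 CPM (1.89, SE 0.14, adjusted p = 8.60e-08), and *Postn*, the matrix protein periostin, rose by 1.23 (SE 0.14). With the motif deleted in cystic kidneys, *Mgl2*, a lectin of macrophages and dendritic cells (4.62 to 9.09 against 12.2 to 18.9 CPM, log2 fold change -1.22, SE 0.24, adjusted p = 0.0145), and *Ccl17*, a chemokine (0.342 to 0.481 against 1.13 to 1.39 CPM, -1.57, SE 0.37, adjusted p = 0.0336), were lower, and all 13 had a negative log2 fold change (median -0.99). The 2 called genes stand against 1.04% of all genes that were lower. The count of 2 became 0 without mouse 28 or 29 and on the compared groups only, 1 without mouse 26 or 27 or with *Xist* as covariate, 3 without mouse 30, and 6 without a cutoff on low counts. Of all genes, 0.178% were lower without mouse 28, 0.174% without 29, 0.278% on the compared groups only and 2.48% without a cutoff. The share was 0.604% without mouse 26, 0.243% without 27, 1.12% with *Xist* as covariate and 1.46% without mouse 30.

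The 10 STAT5-linked genes split: 5 rose and 5 fell in cystic *Pkd2* +/+ kidneys (median log2 fold change -0.13), against 16.9% and 14.2% of all genes. *Prlr*, the prolactin receptor, fell from 182 to 213 CPM down to 61.8 to 85.3 CPM (-1.41, SE 0.10, adjusted p = 7.10e-08), and *Ghr*, the growth hormone receptor, fell by 0.84 (SE 0.09). *Csf2ra*, a receptor subunit for granulocyte-macrophage colony-stimulating factor, rose by 0.85 (SE 0.15), and so did *Cish*, which is in this list too. *Prlr* was higher with the motif deleted in cystic kidneys (112 to 128 CPM, 0.66, SE 0.10, adjusted p = 0.00381). It was the only one of the 10 to pass, against 1.19% of all genes that were higher. It shares 203 exon bases with *Gm21973* on the same strand.

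**Figure D4:**
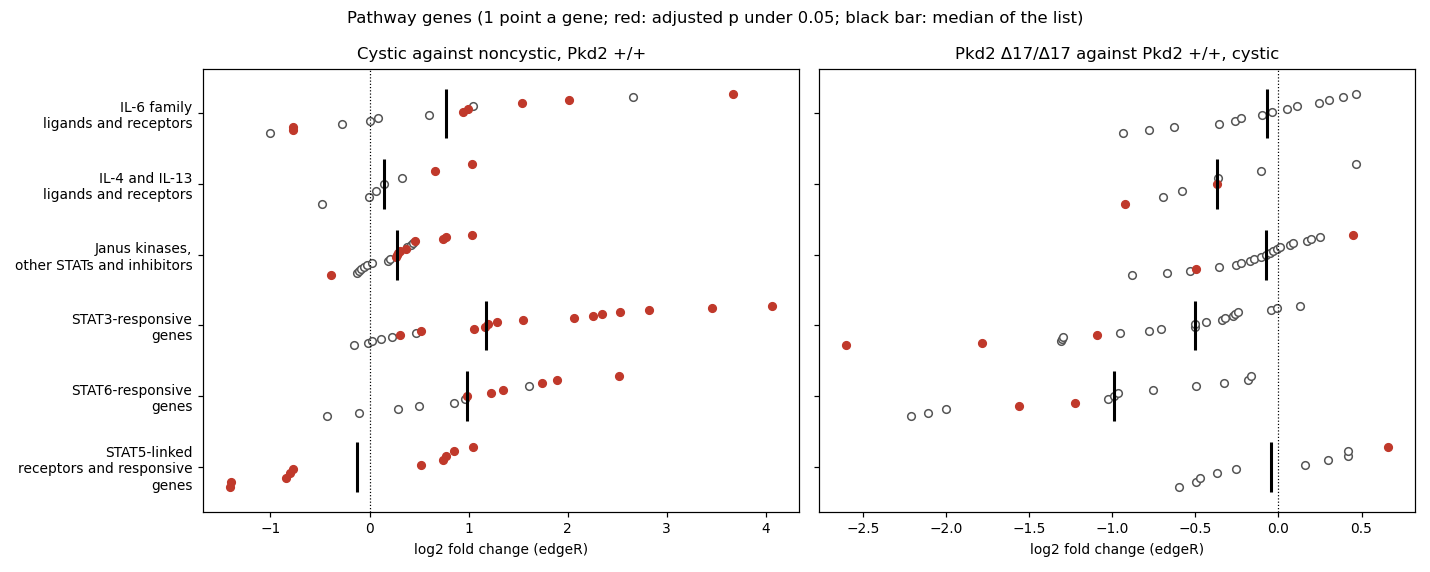
log2 fold change (horizontal axis) of each tested gene of the 6 pathway lists (1 point a gene), for cystic against noncystic *Pkd2* +/+ kidneys on the left and for *Pkd2* Δ17/Δ17 against *Pkd2* +/+ in cystic kidneys on the right; red points have an adjusted p under 0.05 and black bars are list medians. On the left 14 of 20 STAT3-responsive genes are red and right of 0, and on the right 3 of 20 are red and left of 0.

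Markers of other cell types moved with the same groups. The 8 macrophage markers summed to 175 to 182 CPM in noncystic *Pkd2* +/+, 157 to 193 CPM in noncystic *Pkd2* Δ17/Δ17, 424 to 588 CPM in cystic *Pkd2* +/+ and 292 to 413 CPM in cystic *Pkd2* Δ17/Δ17 kidneys. All 8 rose in cystic *Pkd2* +/+ kidneys, against 16.9% of all genes. With the deletion in cystic kidneys 4 of 8 were lower, against 1.04% of all genes. Mouse 30 had the highest macrophage sum of the cystic *Pkd2* Δ17/Δ17 kidneys, as it had the highest *Stat3*, *Socs3* and *Osmr*. All 6 proximal tubule markers fell in cystic *Pkd2* +/+ kidneys, with sums of 6674 to 8247 CPM in noncystic and 2528 to 3491 CPM in cystic ones. Of all genes 14.2% fell. With the deletion in cystic kidneys 3 of 6 were higher, against 1.19% of all genes. The part of these cell types in the levels of the 10 genes was not tested.

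Of 7 fibroblast markers, 3 rose and 2 fell in cystic *Pkd2* +/+ kidneys, and the sum went from 1913 to 2051 CPM up to 2753 to 4192 CPM. Of 8 lymphocyte markers 1 rose and 1 fell, with sums between 5.85 and 14.3 CPM over all mice. The 7 neutrophil markers summed to at most 2.74 CPM in any mouse, 0 of the 5 tested passed, and *Elane* had 0 reads in all 6 cystic kidneys. In cystic *Pkd2* +/+ kidneys, 4 of 6 endothelial, 4 of 5 thick ascending limb and distal tubule and 4 of 5 podocyte markers fell, 1 podocyte marker rose, and of 6 collecting duct markers 1 rose and 2 fell. These marker counts are to be read against 16.9% of all genes that rose and 14.2% that fell.

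**Figure D5:**
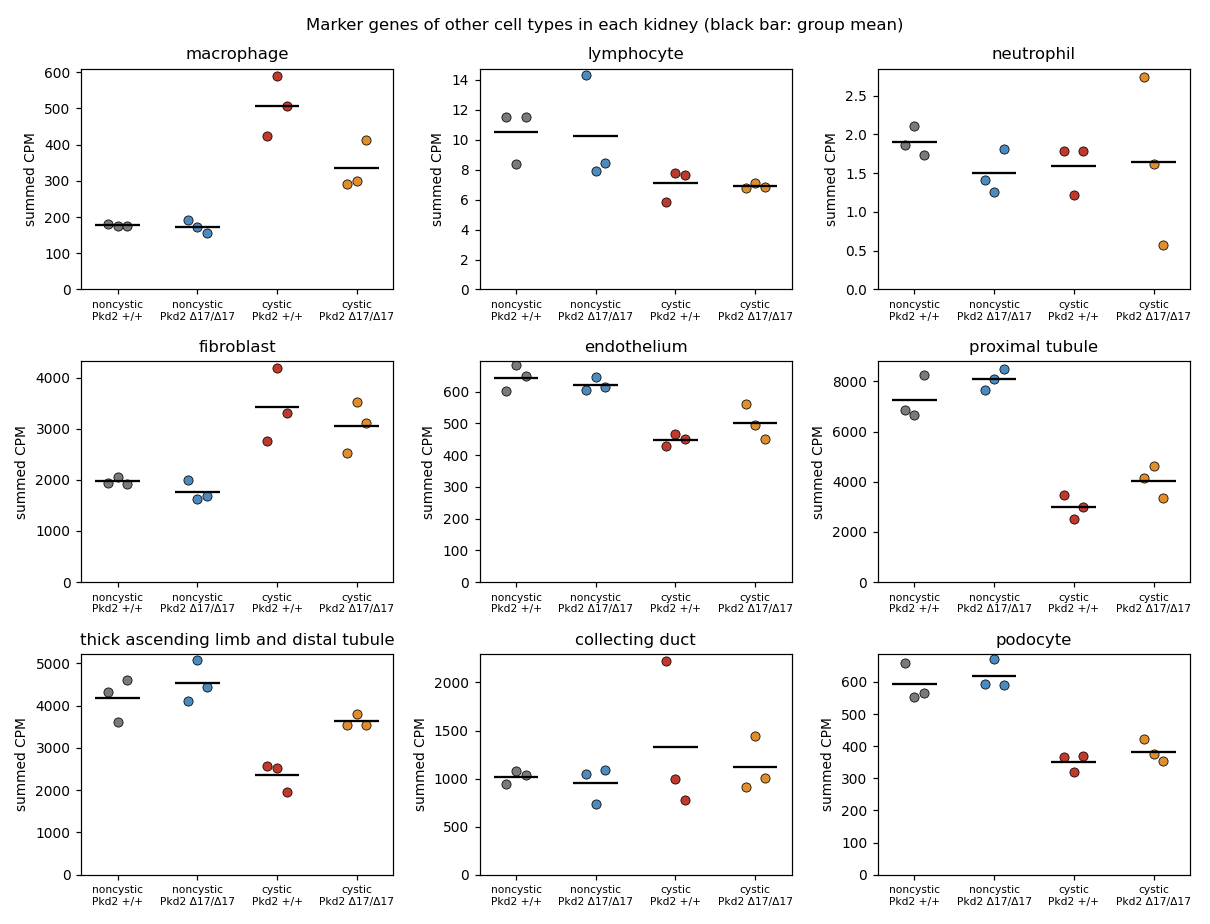
Summed CPM (vertical axis, linear, from 0) of marker genes of 9 cell types in each of the 12 kidneys; points are mice and black bars are group means. Macrophage sums are highest in cystic *Pkd2* +/+ kidneys, at 424 to 588 CPM, and proximal tubule sums are lower in both cystic groups than in the noncystic ones.

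Over the 12 mice, the genes outside the 10 whose log2CPM was most like that of *Stat3*, among the 13659 genes whose mean log2CPM was 1 or more, were *Arhgdib* (Pearson r = 0.992), *Esyt1* (0.991) and *Mbp* (0.990). Those most like *Stat6* were *Actn4* and *Bcr* (0.896 each) and *Fam83b* (0.895). These values are descriptions: the 12 points fall into the 4 groups, which share disease state, and they carry no test.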

How the data were processed

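RNA-seq counts of the right kidneys of 12 mice were taken as deposited. The authors trimmed reads with Trim Galore 0.6.3, aligned them to GRCm38 with STAR 2.5.3a and deposited raw counts per gene as whole numbers (Ensembl release 94), not normalized. The strand column they used is not given in the sources used here. All 12 columns were matched to mice by the labels. Replicates of a group differed beyond sampling noise (chi-square per degree of freedom of 9.65 to 26.8). Unnamed genes (343) hold 0.0225% of reads.

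Genes with a mean log2CPM of at least -3 (prior count 2), the cutoff of the study, were kept. CPM used TMM factors. The main test was edgeR 4.0.16 (R 4.3.3), quasi-likelihood, 1 mean per group over all 12 mice, with 8 residual degrees of freedom, Benjamini-Hochberg adjustment over all genes kept and a threshold of 0.05. SEs are the log2 fold change over the root of F, with a median of 0.136 over the 10 genes between cystic and noncystic *Pkd2* +/+ kidneys. Alternatives were limma-trend (limma 3.58.1, prior count 3, library totals; the method of the study), DESeq2 1.42.0, library totals or RLE factors, no cutoff, filterByExpr, only the groups compared, *Xist* as covariate and leaving out each mouse.

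The 10 genes and the pathway and marker lists were chosen with earlier results of these data known. Named list genes are, for cystic against noncystic *Pkd2* +/+ and for the deletion in cystic kidneys, up to 2 rising and 2 falling genes past the threshold with the smallest adjusted p; *Pim1*, *Cebpb*, *Cebpd*, *Lcn2* under the deletion, *Il6*, *Il13*, *Il13ra2* and *Lif* under the deletion were named after their values were seen. Coordinates, exons and 3′-UTRs are from GENCODE M21 (54495 of 54532 identifiers found). A mean log2CPM of at least 1 was required for the genes most like *Stat3* and *Stat6*.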

Additional observations from a re-analysis of the deposited data

How the results depend on the processing

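Each comparison of 2 groups was recomputed under 14 alternatives and the interaction under 19. The count of genes that rose in cystic *Pkd2* +/+ kidneys was 6 or 7, with *Stat6* added under library totals (limma-trend and edgeR). Of all genes, 16.9% rose in the main fit, 12.8% without a cutoff, 25.4% in edgeR with library totals and 25.6% in limma-trend. For the deletion in cystic kidneys the count of 2 became 5 without a cutoff on low counts, 0 in a fit on the compared groups only, and 0 to 5 when a mouse was left out. The share of all genes called moved as well: 2.23% in the main fit, 4.94% without a cutoff and 0.683% on the compared groups only. With a mouse left out it ran from 0.479% to 3.46%. For the interaction the count of 0 became 2 without a cutoff (*Socs3* and *Osmr*), and 0 to 1 when a mouse was left out (*Socs3*, without mouse 30). Of all genes, the interaction was called in 0.0122% in the main fit, 1.71% without a cutoff and 0.232% without mouse 30. The counts of 0 in noncystic kidneys held under every alternative, where at most 0.374% of all genes were called. The count of 5 between the *Pkd2* Δ17/Δ17 groups, counted in either direction, stayed between 4 and 6. The share of all genes called between these groups was 23% in the main fit. It ran from 18% without mouse 30 to 34.7% with filterByExpr. *Stat6* was added as higher under library totals. *Stat5a* was added as lower with DESeq2 or without mouse 30, and *Il6ra* as lower without mouse 24 or 30. *Osmr* was lost without mouse 22 or 30. No paired analysis was possible because the labels used here give no litter or other pairing of the mice. The cause of these changes was not tested, and with 3 mice a group a fit without a mouse has fewer degrees of freedom.

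The sign turned for some log2 values near 0, and none of the turned values was called. Under library totals, which move the median by 0.158 (*Pkd2* +/+) and 0.151 (*Pkd2* Δ17/Δ17) for cystic against noncystic, *Stat5a* became 0.002 and *Stat5b* 0.061 with *Pkd2* +/+ (0.060 in limma-trend), and *Stat5b* 0.080 with *Pkd2* Δ17/Δ17 (0.079 in limma-trend). With *Xist* as covariate in noncystic kidneys, the deletion gave 0.008 for *Socs3* and -0.026 for *Il6ra*. With a mouse left out, the values between the *Pkd2* Δ17/Δ17 groups ran from -0.002 to 0.058 for *Stat6* and from -0.117 to 0.176 for *Il4ra*. Those for the deletion in cystic kidneys ran from -0.170 to 0.027 for *Stat5a* and from -0.002 to 0.145 for *Stat5b*. Those for the deletion in noncystic kidneys ran from -0.014 to 0.101 for *Stat5b*, from -0.243 to 0.169 for *Socs3*, from -0.202 to 0.170 for *Il6ra* and from -0.045 to 0.242 for *Osmr*. Those for the interaction of *Stat5b* ran from -0.062 to 0.1.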

Other observations

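Some genes of the type 2 immune list were high in a part of a group only. *Arg1*, the arginase of alternatively activated macrophages, ran from 0.565 to 9.72 CPM (12 to 251 reads) in the 3 cystic *Pkd2* +/+ kidneys, and its lowest value there lies inside the 0.305 to 0.855 CPM of the noncystic *Pkd2* +/+ kidneys, although the gene passed between these groups (log2 fold change 2.52). *Retnla*, another gene of such macrophages, ran from 2.20 to 19.8 CPM in cystic *Pkd2* +/+ and from 0.196 to 4.23 CPM in cystic *Pkd2* Δ17/Δ17 kidneys and did not pass between them. These genes were chosen after their values were seen.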
